A study of Mus musculus with 42 samples.

Results

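The genes described here encode the proteins of the mitochondrial ribosome, with expression measured in E7.5 offspring of male mice that had been given DEHP. They were chosen by symbol: every gene of the expression table whose symbol is Mrpl or Mrps followed by a number and at most 1 letter. That gave 76 of 12988 genes, 47 with a large-subunit symbol (Mrpl) and 29 with a small-subunit symbol (Mrps), spread over 17 chromosomes. The rule uses no measured value.

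Male C57BL/6J mice were dosed for 67 days with vehicle or with DEHP (a phthalate plasticizer) at 2.5 or 25 mg/kg/day and then mated with unexposed females. The labels give the offspring as wild-type E7.5 conceptuses of a C57BL/6 * DBA/2J cross, separated into embryonic and extra-embryonic tissue. The expression groups used here are offspring of vehicle-treated fathers (control), of fathers given 2.5 mg/kg/day (low) and of fathers given 25 mg/kg/day (high). The expression table holds 2 libraries per group, and a DNA methylation table, made by bisulfite sequencing of CpG-rich restriction fragments (RRBS), holds 3 per group. The methylation columns are named by the same treatments but give no age. For each treatment, the labels list RRBS samples of E7.5 conceptuses and others with an age in weeks and no embryonic day. The methylation columns could come from either kind of sample. Neither the column names nor the labels say which tissue a column came from. They also do not say whether libraries of a group came from separate litters or pools. The p-values below therefore measure only the spread between these libraries, which may be technical.

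The mitochondrial ribosome translates the few mRNAs that mitochondrial DNA encodes, all of them for subunits of the respiratory chain and ATP synthase. Its proteins are encoded in the nucleus, made in the cytosol and imported, and they assemble on ribosomal RNAs transcribed inside the organelle. Some descend from bacterial ribosomal proteins and others have been added during the evolution of mitochondria. Mouse embryos that lack certain of these proteins arrest around gastrulation, the stage sampled here. Promoters of genes for mitochondrial proteins are known to hold sites for NRF1, for ETS-family factors such as GABPA (also called NRF2) and for YY1.

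By known structure, 49 of the 76 proteins sit in the large subunit and 26 in the small subunit. Mrps18a and Mrps30 are part of the large subunit in spite of their symbols, and Mrps36 is not a ribosomal protein but a component of the 2-oxoglutarate dehydrogenase complex. Of the 75 others, 45 have a bacterial homolog and 30 are specific to mitochondria. Mrpl33 and Mrpl53, also parts of the large subunit, had no row in the table and were not analysed here, nor were the mRNAs encoded by mitochondrial DNA.

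Promoter sequences are shown first, because they do not depend on the measured values. RefSeq promoters (GRCm38.p6, 250 bases before to 50 bases after the start) were matched by symbol for 67 of the 76 members. Each stretch below runs 5′ to 3′ on the gene's strand from 120 bases before the start to 30 bases after it. Capitals mark the NRF1 word (GCGC, then any base, then TGCGC), the ETS word CCGGAAG and the YY1 word GCCATNTT, each searched on both strands. Mrps24, Mrps26 and Mrps30 are shown because they had the 3 smallest p-values of all members in both comparisons with control. Mrpl52 had the smallest among the large-subunit symbols, and Mrpl12 is the member with the highest CPM. Mrpl3 and Mrps22 are shown because their loss is known to stop mouse development. Mrps11 is shown because its start lies 42 bp from that of Mrpl46. The same stretches of Mrpl20 and Mrpl46, not printed here, held none of the 3 words.
Mrps24, chr11:5707672-5707821, minus strand, no word in the stretch shown: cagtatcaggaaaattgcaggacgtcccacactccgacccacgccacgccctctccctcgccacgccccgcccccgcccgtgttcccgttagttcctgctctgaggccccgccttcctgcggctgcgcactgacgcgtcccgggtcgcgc
Mrps26, chr2:130563637-130563786, plus strand, ETS and NRF1 words: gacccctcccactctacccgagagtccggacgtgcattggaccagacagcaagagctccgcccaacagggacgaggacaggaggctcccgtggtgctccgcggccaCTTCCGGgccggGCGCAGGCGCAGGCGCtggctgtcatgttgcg
Mrps30, chr13:118387223-118387372, minus strand, YY1 word: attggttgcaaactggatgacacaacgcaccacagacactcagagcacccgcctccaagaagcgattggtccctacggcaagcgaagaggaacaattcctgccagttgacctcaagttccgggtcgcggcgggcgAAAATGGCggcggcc
Mrpl52, chr14:54426789-54426938, plus strand, ETS words: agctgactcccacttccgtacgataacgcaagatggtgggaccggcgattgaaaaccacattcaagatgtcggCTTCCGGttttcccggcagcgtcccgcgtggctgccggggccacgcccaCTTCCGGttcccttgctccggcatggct
Mrpl12, chr11:120484517-120484666, plus strand, NRF1 word: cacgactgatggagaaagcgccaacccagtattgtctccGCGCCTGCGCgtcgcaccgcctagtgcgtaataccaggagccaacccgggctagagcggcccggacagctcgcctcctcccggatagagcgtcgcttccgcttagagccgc
Mrpl3, chr9:105053148-105053297, plus strand, ETS word: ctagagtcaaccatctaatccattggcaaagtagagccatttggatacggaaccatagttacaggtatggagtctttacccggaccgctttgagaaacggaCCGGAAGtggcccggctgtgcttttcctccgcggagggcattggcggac
Mrps22, chr9:98601650-98601799, minus strand, ETS word: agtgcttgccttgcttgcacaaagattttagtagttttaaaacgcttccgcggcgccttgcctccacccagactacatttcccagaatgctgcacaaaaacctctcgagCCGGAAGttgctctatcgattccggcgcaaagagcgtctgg
Mrps11, chr7:78783011-78783160, plus strand, YY1 word: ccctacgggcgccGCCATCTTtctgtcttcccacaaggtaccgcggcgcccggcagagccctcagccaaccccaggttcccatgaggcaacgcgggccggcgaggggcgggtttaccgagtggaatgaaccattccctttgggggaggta

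A gene with several 300-base windows was counted for a word if any of them held it. The ETS word was found in 24 of 67 members (35.8%). It was found in 20.3% of the 9932 genes of the expression table with a promoter entry, members included, and 9.93% of all 27025 RefSeq genes with one. The YY1 word was found in 21 members (31.3%), against 10.02% and 6.96%. The NRF1 word was found in 13 members (19.4%), against 11.7% and 5.19%. At least 1 of the 3 words stood in 45 of 67 members (67.2%), against 35.8% and 19.4%. The E-box CACGTG, the letters bound by MYC and USF factors, was found in 5 members (7.46%), against 11.9% and 8.09%. These are descriptions of letters in a window and not of bound sites.

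Between the subunits, the NRF1 word stood in 10 of 41 large-subunit and 3 of 26 small-subunit members. For the ETS word the counts were 13 of 41 and 11 of 26, and for the YY1 word 14 of 41 and 7 of 26. The positions of the matches were counted without a test, in the first listed window of each member. The counts of members use any window of a gene, so Mrpl48, counted for the ETS word, adds no position. Of 24 matches of the YY1 word, 16 began at or after the transcription start, as in Mrps30, whose match begins 15 bases after it. Of 27 matches of the ETS word, 9 began at or after the start and 10 within the 50 bases before it. Of 19 matches of the NRF1 word, 3 began at or after the start, 7 within the 50 bases before it and 9 further upstream. In Mrpl9, Mrpl32 and Mrpl39 the same site matched on both strands and was counted on each, so there are fewer distinct sites. Mrps24 has a YY1 match that begins 36 bases after its start, beyond the stretch shown. No promoter held overlapping matches of different words. A start on the opposite strand lay within 1000 bp upstream of 26 of 67 members (38.8%), compared with 19.1% of the expression table's genes. For 1 pair the neighbour was itself a member: Mrps11 and Mrpl46 are arranged head to head on chromosome 7 with their starts 42 bp apart, so that 1 stretch of DNA serves a small-subunit and a large-subunit gene.

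All 76 members passed the filter on low values (at least 1 CPM in 2 or more libraries). CPM, counts scaled by the authors for library size, are not divided by transcript length, so levels are not compared between genes here. Single values lay between 7.57 and 106 CPM. The members varied little between libraries of 1 group: the median within-group SD on the log2(CPM + 1) scale was 0.05 (3.34%) over the members, 0.08 (5.92%) over all 12987 genes tested and 0.07 (5.31%) over the 7505 genes with a mean CPM in the members' range. Gene lines made up 70.2 to 72.1% of each library's CPM, and the smallest step between CPM values, which is larger in a shallower library, was 0.00515 to 0.0065 CPM, largest in the high libraries. The lowest member value in any library equals 1303 such steps. The epiblast markers (6 of 6 detected, summed level 1460 to 2376 CPM) and the visceral endoderm markers (6 of 6, 1009 to 2270 CPM) were both present in every library, while the 5 measured trophoblast markers (7 listed) summed to 65.4 to 123 CPM.

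No member passed the test in any comparison. In limma's test on log2(CPM + 1), adjusted by Benjamini-Hochberg over 12987 genes, 0 of 76 members passed for low against control, where 0% of all genes passed. For high against control 0 of 76 passed, where 0.0077% of all genes (1 gene) did, and for high against low 0 of 76, where 0% did. At an unadjusted p under 0.05, limma gave 5 members for low against control (all genes 4.87%), 2 for high against control (5.29%) and 0 for high against low (7.91%). All of these were higher in the exposed group, a direction that with that p held for 1.9% of all genes in low against control, 3.65% in high against control and 5.69% in high against low. The residual degrees of freedom were 3. Since these are bulk samples, fewer cells of a type and less RNA per cell cannot be told apart.

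The signs of the differences were uneven. For low against control, 75 of 76 members had a positive log2 fold change (46 of 47 large, 29 of 29 small), whereas 51% of all genes did. The median log2 fold change was 0.07 for the large-subunit members (5.08%), 0.08 for the small-subunit members (5.96%) and 0.00 for all genes. The exception was Mrpl17, with a log2 fold change of -0.01. For high against control, 69 of 76 were positive (42 of 47 large, 27 of 29 small; all genes 58.6%). The medians were 0.06 for the large subunit (4.09%), 0.08 for the small subunit (6.05%) and 0.02 for all genes. The 7 with a negative sign were Mrpl4, Mrpl28, Mrpl34, Mrpl38, Mrpl44, Mrps5 and Mrps27, the lowest being Mrps27 at -0.03. Both comparisons use the same 2 control libraries, so their agreement is not a second observation. Members are also not replicates of a condition, since all were read from the same 6 libraries.

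For high against low, 34 of 76 members were positive (18 of 47 large, 16 of 29 small), against 57.5% of all genes. The median was -0.01 for the large subunit, 0.00 for the small subunit and 0.01 for all genes. These values depended on the scaling. With each library centred on the median of all genes, 9 of 47 large and 6 of 29 small members were positive for high against low, and the medians were -0.04 and -0.02. On that scale the large-subunit median was farther from zero for high against low than for high against control, where it was 0.02.

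**Figure D1:**
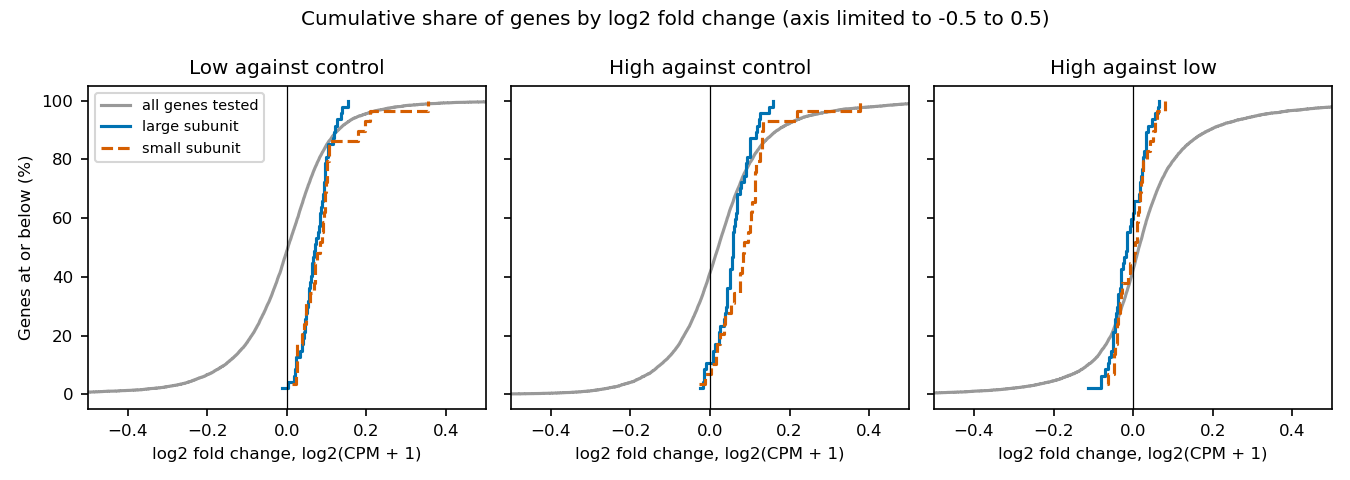
Cumulative share of genes (vertical axis) by log2 fold change on the log2(CPM + 1) scale (horizontal axis) for large-subunit members (47), small-subunit members (29) and all 12987 genes tested, in 3 comparisons. Against control the curves of both subunits lie to the right of that of all genes, with medians of 0.06 to 0.08 against 0.00 and 0.02; for high against low they lie close to zero.

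The separation of libraries was counted as well. In 46 of 76 members both low libraries lay above both control libraries (28 of 47 large, 18 of 29 small), which held for 18% of all genes, and in 0 members did both lie below (17.2% of all genes). For high against control, 38 members had both libraries above (20 large, 18 small; all genes 23.5%) and 0 had both below (12.1%). Between the exposed groups, both high libraries lay above both low libraries in 9 members (21.8%) and below in 10 (11.8%). All 4 exposed libraries lay above both controls in 29 members, 14 of 47 large (29.8%) and 15 of 29 small (51.7%), compared with 9.1% of all genes and 10.6% of the genes in the members' CPM range. The difference between the subunits in this count was not tested.

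Library by library, 75 of 76 members lay above the control mean in low 1, 67 in low 2, 72 in high 1 and 57 in high 2. The median member lay above the control mean by 0.09, 0.06, 0.09 and 0.04 on the log2 scale in these libraries. The 2 controls lay on either side of it by construction, with 37 and 39 members above. Low 1 and high 1 were thus the higher library of their group and high 2 was the closest to the controls. The share of all genes above their control mean was not counted per library. The median log2(CPM + 1) of all genes was 4.41 and 4.40 in control 1 and 2, and 4.41 and 4.42 in low 1 and 2. It was 4.43 in high 1 and 4.45 in high 2, so part of the members' difference there is found in genes at large. Without high 1, the median log2 fold change of the large-subunit members for high against control was 0.03, and without high 2 it was 0.09. Centring each library on the median of all genes gave 0.02 for the large and 0.05 for the small subunit in that comparison, and 35 of 47 and 22 of 29 positive members.

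**Figure D2:**
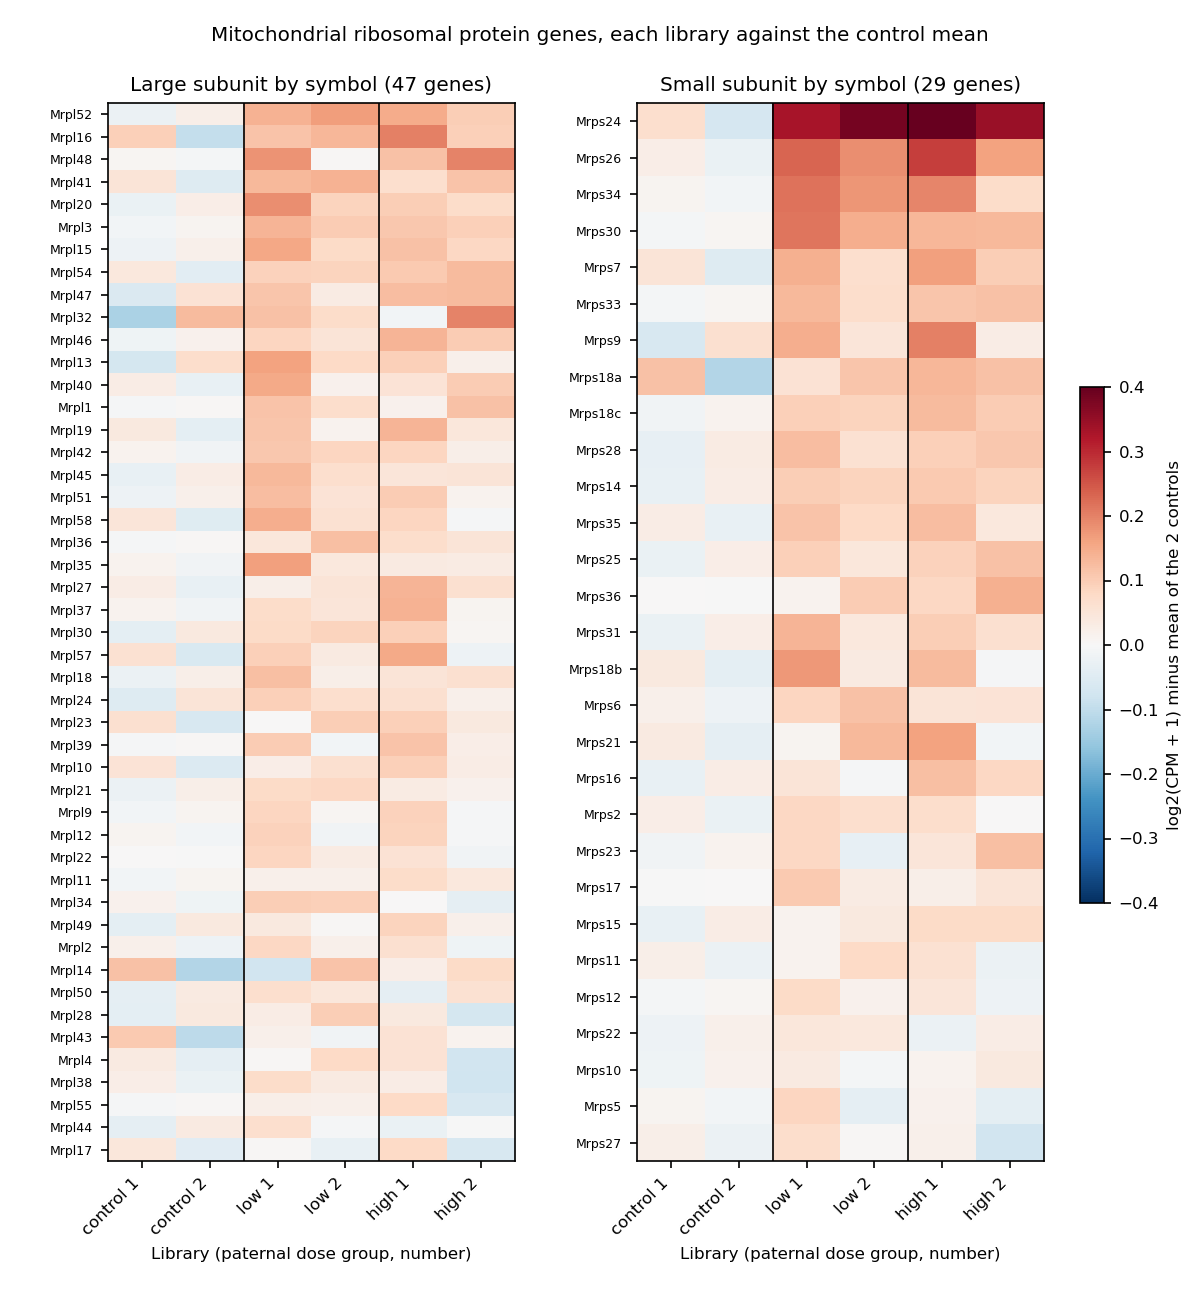
Heat map of the difference of each member's log2(CPM + 1) from its control mean, with the 76 members as rows (47 large, then 29 small) and the 6 libraries as columns. In the 4 exposed libraries 75, 67, 72 and 57 members lie above the control mean, a share that was not counted for all genes. The 2 controls mirror each other because the scale is centred on their mean.

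Summed over members, the large-subunit genes reached 1809 and 1813 CPM in the controls, 1931 and 1877 CPM in the low libraries and 1914 and 1849 CPM in the high libraries. The small-subunit genes reached 897 and 888, 964 and 936, and 961 and 930 CPM in the same order. In both sums every exposed library lay above both controls, while the low and high libraries overlapped. The group means of the large-subunit sum were 1811 ± 2.69 CPM for control, 1904 ± 37.9 for low and 1882 ± 45.6 for high (SD, n = 2 each), 5.13% and 3.91% above control. For the small subunit they were 893 ± 6.71, 950 ± 19.7 and 945 ± 22.3 CPM (SD, n = 2 each), 6.43% and 5.91% above control. The 2-sided exact permutation test gave p = 0.333 for each of these comparisons with control, the smallest value that 2 against 2 libraries allow, and p = 0.667 for high against low in both sums. Together the members made up 0.386 and 0.382% of the CPM in genes in the controls, 0.405 and 0.402% in low and 0.404 and 0.391% in high.

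The ratio of the large-subunit sum to the small-subunit sum was 2.016 and 2.042 in the controls, 2.003 and 2.005 in low and 1.991 and 1.990 in high. The 3 groups did not overlap, and the ratio was lower by 1.23% in low and 1.89% in high than in control. The exact permutation test gave p = 0.333 for each of the 3 pairs of groups, again the smallest value possible. The SD of the ratio was 0.0183 in control, 0.00162 in low and 0.00134 in high (n = 2 each), so that the controls were the farthest apart. Without Mrps24, the member with the largest difference, the log2 difference of the ratio was -0.01 for low and -0.02 for high, against -0.02 and -0.03 with it. Without control 1 these differences were -0.03 and -0.04, and without control 2 they were -0.01 and -0.02. With subunits assigned by structure the ratio was 2.32 and 2.33 in control, 2.30 and 2.31 in low and 2.29 and 2.30 in high.

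**Figure D3:**
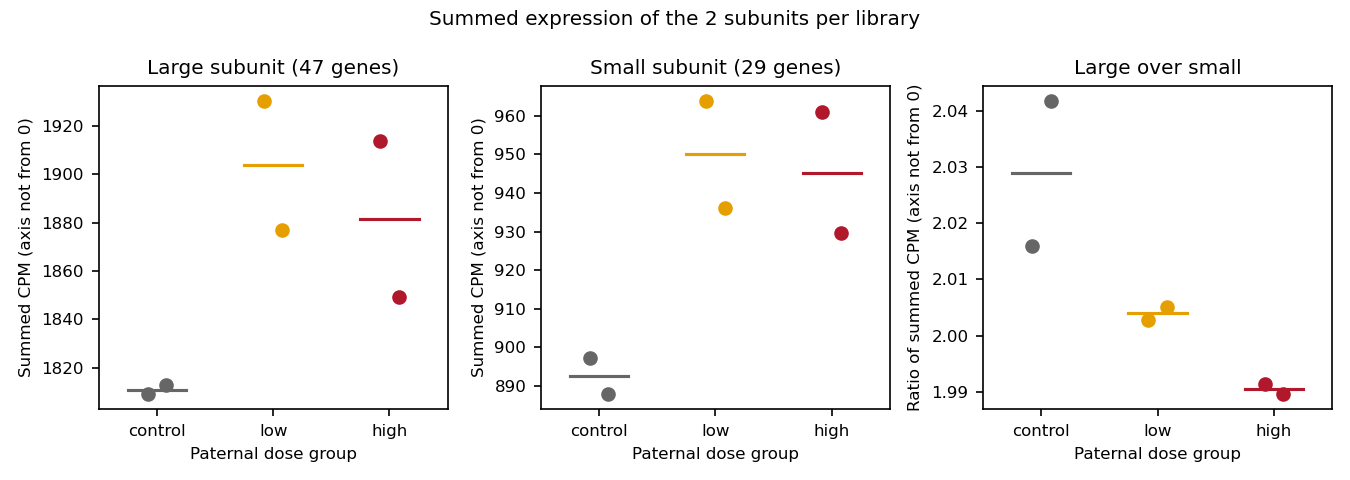
Summed CPM of the large-subunit and small-subunit members and their ratio (vertical axes) in each of the 6 libraries (points) by group, with group means. The 4 exposed libraries lie above both controls in each sum (1849 CPM and more against at most 1813; 930 and more against at most 897) and below both in the ratio (at most 2.005 against at least 2.016).

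By evolutionary origin, with subunits taken by symbol, the 29 large-subunit members with a bacterial homolog had median log2 fold changes of 0.07 for low and 0.06 for high. The 18 large-subunit members specific to mitochondria had 0.08 and 0.06. Among the small-subunit symbols, the 16 bacterial homologs had 0.07 and 0.08. The 12 specific members there, which include Mrps18a and Mrps30, had 0.09 and 0.09. The differences between these classes were not tested.

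Mrps24, a small-subunit protein of bacterial descent that lies where mRNA enters the ribosome, had the largest difference. It read 16.2 and 14.7 CPM in the controls, 19.7 and 20.4 CPM in low, and 20.8 and 19.9 CPM in high. The 4 exposed libraries lay together and apart from the controls. The log2 fold change was 0.36 ± 0.08 (SE) for low (unadjusted p = 0.00252, adjusted p = 0.928, limma) and 0.38 ± 0.08 for high (p = 0.00185, adjusted p = 0.866, limma), about 28.0% and 29.8%. Its span in the expression table is longer than the RefSeq gene and overlaps that of the neighbour Urgcp by 2264 bp, so reads there could be assigned to either gene. Urgcp read 6.08 and 6.72 CPM in the controls, 6.17 and 7.66 in low, and 6.83 and 7.37 in high.

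Mrps26, specific to mitochondria, read 26.1 and 25.1 CPM in the controls, 30.2 and 29.2 in low, and 31.2 and 28.7 in high. Both exposed groups were clear of the controls. The log2 fold changes were 0.21 ± 0.07 (adjusted p = 0.928, limma) and 0.22 ± 0.07 (adjusted p = 0.866, limma). Mrps34, also specific to mitochondria and known from inherited Leigh syndrome, read 31.1 and 30.6 CPM, then 36.0 and 35.0, then 35.5 and 32.5. Its log2 fold changes were 0.20 ± 0.07 for low and 0.13 ± 0.07 for high (adjusted p = 0.928 and 0.866, limma). Again no exposed library overlapped a control, and high 2 was the nearest to them. The table's span of Mrps34 lies wholly within that of Mapk8ip3 (overlap 2387 bp), so its reads could be assigned to either gene. Mapk8ip3 read 56.5 and 56.6 CPM in the controls, 54.3 and 56.5 in low, and 56.5 and 55.8 in high.

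Mrps30, a large-subunit protein by structure, read 42.9 and 43.3 CPM in the controls, 50.1 and 47.7 in low, and 47.3 and 47.2 in high. Its libraries were close within each group, and the log2 fold changes were 0.18 ± 0.06 and 0.13 ± 0.06 (adjusted p = 0.928 and 0.866, limma). Mrpl52, specific to mitochondria, led the large-subunit symbols. It read 26.2 and 27.1 CPM, 29.4 and 30.01 CPM, and 29.6 and 28.6 CPM, with log2 fold changes of 0.15 ± 0.06 and 0.12 ± 0.06 (adjusted p = 0.928 and 0.866, limma). In all 5 of these genes the 4 exposed libraries lay above both controls, as in 9.1% of all genes. Apart from Mrps34, they were named for their small p-values against control, which favours such a separation.

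Among the other large-subunit genes named by p, Mrpl20, whose bacterial counterpart binds early in assembly, read 47.8 and 49.8 CPM in the controls, 55.6 and 52.0 in low, and 52.4 and 51.4 in high. Mrpl46 read 24.1 and 24.7 CPM, 26.0 and 25.3, and 26.9 and 26.2. Both showed all exposed libraries above the controls by small margins. Mrpl48 read 15.9 and 15.7 CPM, 18.0 and 15.8, and 17.2 and 18.2, so that low 2 stood with the controls. The log2 fold changes were 0.14 ± 0.06 for Mrpl20 in low, and 0.12 ± 0.06 for Mrpl46 and 0.16 ± 0.09 for Mrpl48 in high. Without low 1, that of Mrpl20 was 0.09. Mrps11, whose start lies 42 bp from that of Mrpl46, read 23.5 and 22.8 CPM in the controls, 23.4 and 24.5 in low, and 24.2 and 22.8 in high. Its libraries overlapped between all groups. The spans of Mrps11 and Mrpl46 in the expression table overlap by 413 bp, so reads there could be assigned to either gene.

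**Figure D4:**
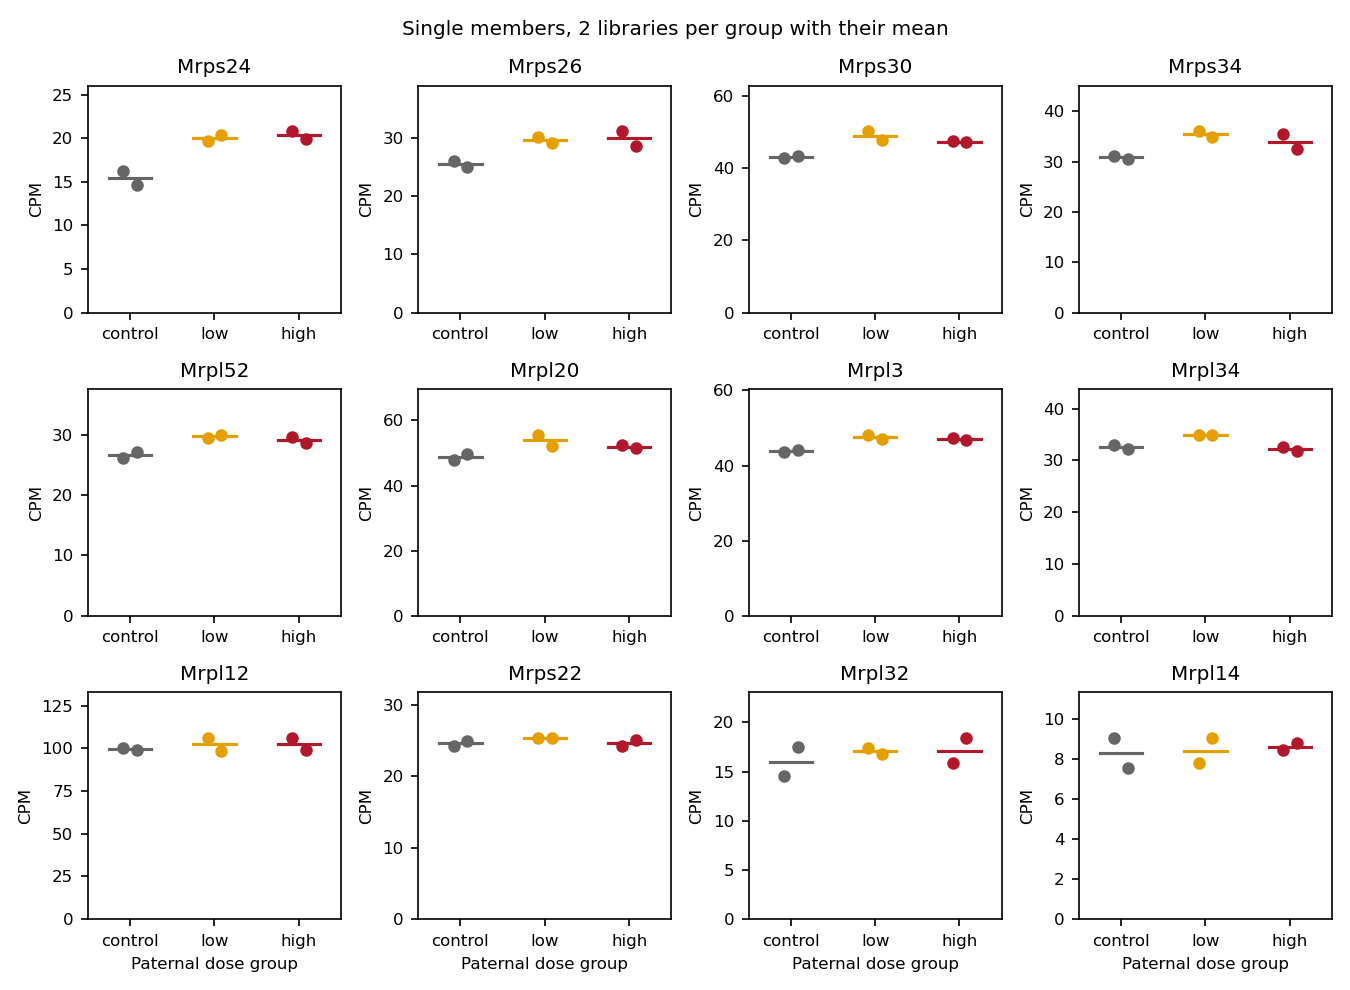
CPM (vertical axes, each starting at 0) of 12 named members in the 2 control, 2 low and 2 high libraries (points), with the group mean as a line. In Mrps24 the 4 exposed libraries (19.7 to 20.8 CPM) are clear of the controls (14.7 and 16.2 CPM); in most others the groups differ by a few CPM.

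The 5 genes whose knockout is known to stop mouse development around gastrulation showed small differences. Mrpl3, next to the peptidyl transferase centre, read 43.5 and 44.1 CPM in the controls, 48.2 and 47.03 in low, and 47.3 and 46.8 in high, with log2 fold changes of 0.12 ± 0.06 and 0.10 ± 0.06. Mrps18c read 24.2 and 24.6, 26.1 and 26.0, and 26.8 and 26.2 CPM. These were the ones among the 5 in which every exposed library lay above both controls (9.1% of all genes). Mrpl22, at the exit tunnel, read 21.7 and 21.7, 23.1 and 22.2, and 22.6 and 21.5 CPM. Mrpl44, related to ribonuclease III, read 32.3 and 34.0, 34.8 and 33.1, and 32.5 and 33.1 CPM, and Mrps22 read 24.2 and 25.0, 25.4 and 25.4, and 24.2 and 25.1 CPM. In these 3 the high libraries overlapped the controls, and their log2 fold changes for high were between -0.01 and 0.02.

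The Mrps18 paralogs can be set side by side. Of them only Mrps18c is counted above among the bacterial homologs. Mrps18a and Mrps18b are counted as specific to mitochondria. Mrps18a, in the large subunit, read 28.95 and 24.5 CPM in the controls, 27.7 and 28.8 in low, and 29.3 and 28.9 in high. Mrps18b read 48.97 and 46.2, 53.8 and 48.8, and 52.1 and 47.4 CPM. Both overlapped between groups, unlike Mrps18c above. The span of Mrps18a overlaps that of Rsph9 by 6876 bp in the table. Mrps36, outside the ribosome, read 13.6 and 13.6, 13.7 and 14.6, and 14.5 and 15.1 CPM, with log2 fold changes of 0.06 ± 0.08 and 0.11 ± 0.08.

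At the top of the CPM range, Mrpl12, the stalk protein that also binds mitochondrial RNA polymerase, read 100.1 and 98.7 CPM in the controls, 106 and 98.4 in low, and 106 and 99.1 in high. The difference within each exposed group was larger than the difference between groups. Mrpl42, Mrpl18, Mrpl15 and Mrpl45 followed, with values of 60.9 to 73.1 CPM. In each of the 4, both low and both high libraries lay above both controls, as in 9.1% of all genes. Their log2 fold changes were 0.07 to 0.12 for low and 0.05 to 0.10 for high. At the low end stood Mrpl14 (7.57 to 9.07 CPM), Mrps33 (12.9 to 14.3 CPM) and Mrpl41 (12.4 to 14.3 CPM). The members that varied most between libraries of 1 group were Mrpl32 (SD 0.14 on the log2 scale), Mrpl14 (0.12) and Mrps18a (0.10).

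Between the exposed groups the largest difference was in Mrpl34, a short protein of bacterial descent. It read 33.0 and 32.3 CPM in the controls, 35.0 and 34.9 in low, and 32.6 and 31.8 in high, so that low stood apart and high lay with the controls. The log2 fold change of high against low was -0.11 ± 0.06 (unadjusted p = 0.0968, adjusted p = 0.778, limma). The next by p were Mrpl38 and Mrpl28 at -0.08 ± 0.07 each, Mrps16 at 0.08 ± 0.07 and Mrps27 at -0.07 ± 0.06. None of these passed the test, and single libraries moved them. Without high 1 the values were -0.14 for Mrpl38, -0.14 for Mrpl28 and -0.11 for Mrps27, and without high 2 they were -0.02 for each of the 3. Without low 2, Mrpl28 stood at -0.05 and Mrps16 at 0.05, and without low 1 Mrps27 stood at -0.03.

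Other genes of the same machinery were read from lists of known roles. Of the mitoribosome proteins without an Mrp symbol, 5 of 6 were measured, and 4 had a positive log2 fold change for low and 5 for high against control, with 0 passing the test. Among them Chchd1, a small-subunit protein, read 39.1 and 40.4 CPM in the controls, 44.0 and 44.0 in low, and 43.6 and 46.6 in high. Its log2 fold changes were 0.14 ± 0.06 and 0.18 ± 0.06 (adjusted p = 0.928 and 0.866, limma). Dap3, also of the small subunit, read 55.6 and 58.4, 60.1 and 61.6, and 62.3 and 62.2 CPM. Every exposed library lay above both controls in 3 of the 5 measured genes of this list, Chchd1 and Dap3 among them, compared with 9.1% of all genes.

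For the 25 assembly factors, 18 were positive for low and 19 for high, with medians of 0.05 and 0.02. Ngrn, which acts on the large ribosomal RNA, read 22.8 and 22.5 CPM in the controls, 25.8 and 25.4 in low, and 25.2 and 24.9 in high. Of 16 mitochondrial translation factors, 14 and 15 were positive, with medians of 0.04 and 0.07. Of 16 genes of mitochondrial transcription and RNA processing, 14 and 10 were positive, with medians of 0.04 and 0.03. Tfam, which packages and transcribes mitochondrial DNA, read 81.7 and 84.0, 87.6 and 85.3, and 86.0 and 88.2 CPM. Of 9 measured biogenesis regulators (10 listed), 6 and 3 were positive, with medians of 0.02 and -0.01. Gabpa, which encodes the ETS factor named above, read 74.8 and 73.6 CPM in the controls, 75.8 and 65.8 in low, and 66.7 and 74.5 in high. In none of these lists did a gene pass the test in either comparison with control or for high against low.

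Cell type markers also differed between the libraries. The epiblast markers summed to 1811 and 2161 CPM in the controls, 2376 and 1861 in low, and 1693 and 1460 in high. The visceral endoderm markers summed to 2154 and 1009, 1634 and 1912, and 1686 and 2270 CPM, lowest in control 2. Markers of caudal tissue and retinoic acid response (4 genes) summed to 108 and 74.2, 14.8 and 53.7, and 188 and 185 CPM. Of the visceral endoderm markers, 6 of 6 had a positive log2 fold change for low and for high against control (medians 0.44 and 0.53). Their sum in control 1 lay above those in low 1, low 2 and high 1. Of 6 streak and mesoderm markers, 3 were positive for low and 1 for high (medians 0.12 and -0.35). Of the 4 caudal markers, 0 and 4 were positive (medians -1.47 and 1.10). Of 2 measured extraembryonic mesoderm markers (4 listed) 0 and 2 were positive, and of 3 blood and endothelium markers (5 listed) 2 and 3. Of the epiblast markers, 5 of 6 were positive for low and 0 of 6 for high (medians 0.10 and -0.35). Of 5 measured trophoblast markers (7 listed), 4 were positive in each comparison with control (medians 0.57 and 0.41), and of 4 decidua markers 1 was positive for low and 3 for high (medians -0.10 and 0.39). None of these markers passed limma's adjusted test. Their sums and the members' can be set side by side: all members together summed to 2706 and 2701 CPM in the controls, 2894 and 2813 in low, and 2875 and 2779 in high. The part of tissue composition in the members' differences was not tested.

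Overlapping neighbours and copies limit single values. The table's spans of 21 members overlap another gene of the table, and 30 of 76 overlap another gene in the table or in RefSeq. Whether counting used strand is not given in the sources used here, so these values are uncertain. Among the 46 members without such an overlap, 45 had a positive log2 fold change for low (median 0.08) and 41 for high (median 0.06). Mrpl23, Mrpl27, Mrpl48 and Mrps36 have named pseudogenes that could share reads with them.

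DNA methylation at the members' starts was low. The RRBS table gives percent methylation of 141251 tiles of 100 bp without coverage, so the depth behind a tile is unknown. Within 500 bp of a member's start lay 228 tiles, belonging to 55 of the 67 members with a RefSeq start. Their median methylation was 1.45%, against 4.24% for the 43819 tiles near any RefSeq start, and 146 (64.0%) were under 5%, against 54.1%. The mean over these tiles was between 4.89 and 5.42% in the 9 libraries. Only 9 tiles exceeded 20%, the highest of them upstream of Mrpl3 with 53.2%, at chr9:105052701-105052800. A second tile of Mrpl3, on the other side of its start, had 0.391%.

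No member tile passed the test. In limma's test on percent methylation, adjusted over 141251 tiles, 0 of 228 passed in each of the 3 comparisons, where 0% of all tiles passed. The lowest adjusted p among member tiles was 0.655 for low against control, 1 for high against control and 0.872 for high against low. At an unadjusted p under 0.05 there were 8 (3.51%; all tiles 5.49%), 5 (2.19%; 4.44%) and 6 (2.63%; 4.71%) in that order.

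The tile with the smallest p for low against control lay at Mrpl48 (chr7:100607701-100607800). It had 13.1, 13.6 and 12.1% in the controls, 8.95, 7.65 and 7.75% in low, and 11.3, 12.9 and 10.4% in high. The low libraries stood apart from both other groups, by -4.80 ± 0.87 points (SE) against control (adjusted p = 0.655, limma). The next lay at Mrps15 (chr4:126046801-126046900), with 12.1, 13.6 and 12.7% in control, 5.33, 10.1 and 9.52% in low, and 14.5, 14.6 and 13.6% in high. Low was again below both other groups, by -4.45 ± 1.30 points against control (adjusted p = 0.816, limma), and high exceeded low by 5.90 ± 1.30 points (adjusted p = 0.872, limma). Mrps15 itself read 31.6 and 33.0 CPM in the controls, 32.6 and 33.2 in low, and 34.1 and 34.1 in high. For high against control the first were Mrpl51 (chr6:125192201-125192300) at 2.87 ± 0.89 points, from 0% in all 3 controls, and Mrpl58 (chr11:115403901-115404000) at -1.84 ± 0.59 points (adjusted p = 1 for both, limma). Expression and methylation columns are not known to come from the same conceptuses, tissue or age, so they were not joined.

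**Figure D5:**
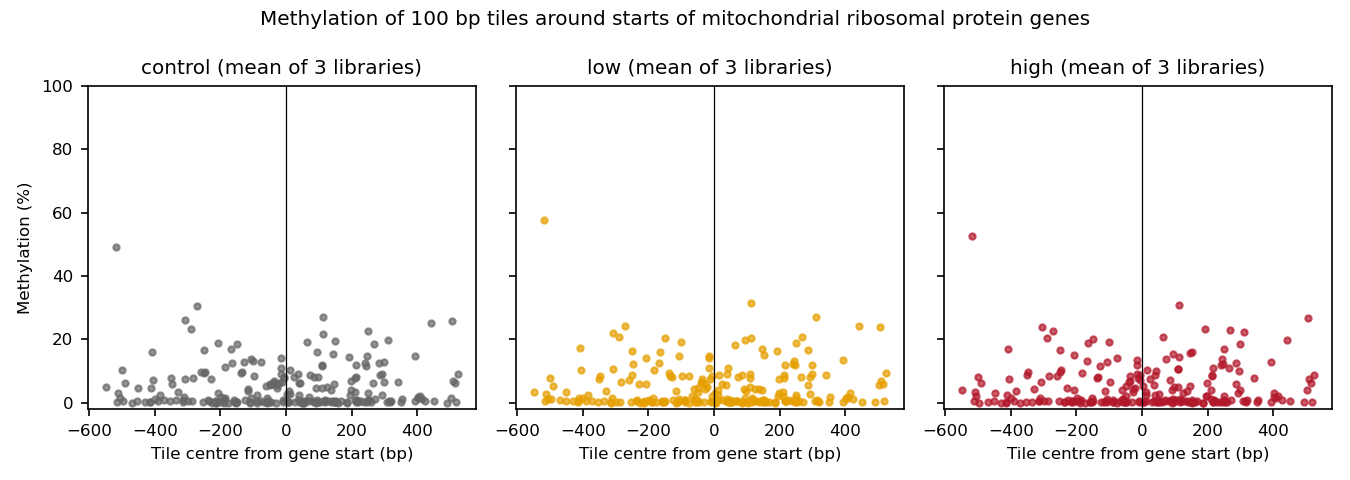
Percent methylation of the 228 tiles within 500 bp of a member's start (vertical axis, mean of 3 libraries) by distance of the tile's centre from the start in bp (horizontal axis), with 1 panel each for control, low and high. Most tiles lie near the bottom in each panel (146 have a mean under 5%), and the highest point is the tile upstream of Mrpl3, at 49.3% in control, 57.7% in low and 52.6% in high.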

How the data were processed

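RNA sequencing values are CPM, made by the authors and read as deposited, with 6 columns (2 each for control, low and high) named by treatment and number per the file headers. In addition to 12988 genes the table holds 3 lines without a gene (27.9 to 29.8% of each library's CPM), which were left out of every test. For RRBS the authors deposited a percent methylation value per tile (100 bp) and library, with no coverage. The submitters' processing notes name edgeR, SAMtools, TopHat, Bowtie 0.12.2 and Trim Galore, also methylKit, Bismark and Bowtie2, and the builds mm8 and mm10, with no role given. Tiles were set against RefSeq starts of GRCm38.p6: 43819 lay within 500 bp (mean 8.65%), against 2172 to 3295 (33.9 to 37.1%) for starts shifted along the chromosome.

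Differences in log2(CPM + 1) were fitted in limma (version 3.58.1, R 4.3.3) with the trend option. The fit held the 3 groups and the 12987 genes that reached 1 CPM in 2 libraries, and its p-values were adjusted by Benjamini-Hochberg with a threshold of 0.05. Fold changes on this scale understate changes of low genes. Tiles were tested with limma on percent methylation over 9 libraries. Both fits were first run on simulated data, with added differences larger than any of the members or their tiles. Those runs do not show whether differences of the members' size would be found. CPM in each library are whole multiples of 1 step (100% of values, tolerance 0.01), but the column sums of 982921 to 1017434 leave the scaling unknown, so no count model was used. Library sums were compared by 2-sided exact permutation tests.

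Members named are those with the smallest p (3 per comparison and subunit), the 5 highest and 3 lowest in CPM, the 3 most variable, 5 genes with known knockouts, the Mrps18 paralogs and those whose symbol and location differ. From the other lists up to 2 genes per comparison were eligible. Members with a negative sign, Mrps11, Urgcp, Mapk8ip3 and the expression of Mrps15 were added after their values were seen, as were the Mrpl3 tiles. The members and lists were chosen with earlier results of these data known. Same-numbered libraries were not paired by any label. Alternatives covered the pseudocount, filter, scaling, variance model, groups in the fit, single libraries, pairing, subunit assignment, window and, after seeing the data, rescaling to gene lines and leaving out Mrps24 or overlapping members.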

Additional observations from a re-analysis of the deposited data

How the results depend on the processing

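No alternative gave a member or a member tile past the threshold, and the differences of the 3 members with the smallest p per comparison and subunit, and of the tiles with the smallest p, kept their sign. Single values of other members were not recomputed. All results are limited by 2 expression libraries per group and by methylation without coverage. With quantile normalization the median log2 fold change for high against low was -0.0384 for the large and -0.0173 for the small subunit, with 9 of 29 small-subunit members positive. With median centring it was -0.0412 and -0.0221, with 9 of 47 and 6 of 29 positive, and for high against control the medians were 0.0218 and 0.0487; the cause was not tested. With subunits by structure the log2 difference of the ratio for high against control was -0.0197. Single libraries were left out in fits where the lone library is assumed to vary like the other groups. The large-subunit median then ranged from 0.0533 to 0.0934 for low against control, from 0.0282 to 0.0870 for high against control and from -0.0352 to 0.00837 for high against low. The small-subunit median for high against low ranged from -0.0168 to 0.0159, with 10 to 20 positive members (10 without low 2 or without high 1). The log2 difference of the ratio ranged from -0.0270 to -0.00862 for low and from -0.0367 to -0.0183 for high against control, the ends without control 1 and without control 2. Same-numbered libraries correlated by 0.00349, -0.0727 and 0.0896 across genes in their deviations from group means. With 2 libraries per group these deviations mirror each other, so the values cannot settle whether the numbers pair the libraries. With the number as a replicate block, 0 members passed and the medians for low against control stayed at 0.07 and 0.08. The planned edgeR count test was not run. The CPM are whole multiples of 1 step, but the scaling is unknown and the steps were not accepted as whole reads.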
